A study of Mus musculus with 54 samples.

Results

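Gene expression in the neural retina was compared at postnatal day 9 (PN9) between rd1 and wild type (WT) mice of the C3H strain. The comparison was defined by the sample titles, as the 3 arrays of rd1 PN9 against the 3 arrays of WT PN9, which are 6 of the 54 arrays of the series. It was read over the 18193 genes that have 1 annotated symbol. WT mice carried 2 normal alleles (C3Hwt/wt) and rd1 mice were homozygous for the mutation (C3Hrd1/rd1), and the labels name no treatment. The RNA came from dissected neural retina, so each value is a mixture over all its cell types. Arrays are biological replicates according to the labels, which do not give the number of mice behind each, so a p-value here measures the spread between these RNA samples.

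Rods detect light through a cascade that ends at the rod cGMP phosphodiesterase, which hydrolyses cGMP and thereby closes the cGMP-gated cation channels of the outer segment. Pde6b encodes the beta subunit of that enzyme, and the rd1 allele is a loss-of-function mutation of it. Without the enzyme cGMP builds up in rods, and rods of this model degenerate early in postnatal life, while the photoreceptors are still maturing. Immediate early genes, such as Fos and Egr1, encode transcription factors whose mRNA rises quickly and without new protein synthesis after many kinds of stimulus.

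The 6 arrays were alike in brightness, with median intensities between 129.8 and 132.9. Pearson's r across genes was 0.9934 to 0.9974 in the 6 pairs of the same genotype and 0.9934 to 0.9980 in the 9 pairs of different genotype, and genes are not independent replicates. The arrays were labelled as retina, and the 17 measured rod markers averaged 11.40 to 11.60 on the log2 scale in all 6. The 3 Y-linked genes read here stood lowest in rd1 replicate 1, where Eif2s3y was at 3.56 against 6.63 to 8.26 in the other 5 arrays. Xist, the transcript of the inactive X chromosome, was at 12.93 to 13.60 in all 6. The part of this makeup in the results was not tested, and results are therefore also given without rd1 replicate 1.

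At PN9 the retinas differed in 7 genes, which is 0.0385% of the 18193 tested (limma, adjusted p under 0.05). Of these, 5 (0.0275%) were higher in rd1: Dipk1a, Kcnj14, Fos, Nr4a1 and D930016D06Rik. The other 2 (0.011%) were lower: Pde6b and Zfp33b. Without rd1 replicate 1 there were 5 calls, since Kcnj14 and D930016D06Rik missed the threshold. With array weights there were 11 calls. In Pde6b, Zfp33b, Dipk1a and D930016D06Rik the groups also did not overlap at any age from PN5 to PN13. These differences were large at all of those ages in Pde6b, Zfp33b and Dipk1a, but small at some in D930016D06Rik (0.23 at PN5 and 0.17 at PN7). PN5, PN6 and PN12 had 2 arrays per genotype, where groups separate more easily. The share of all genes that separate at every one of these ages was not counted. Fos, Nr4a1 and Kcnj14 were at 0.26 or lower at PN5, PN6 and PN7. An unadjusted p under 0.05 was reached by 536 genes (2.95%), of which 232 (1.28%) were higher and 304 (1.67%) lower, and one under 0.001 by 17 (0.0934%). The 3 rd1 arrays lay wholly above or below the 3 WT arrays in 1266 genes (6.96%), above in 479 (2.63%) and below in 787 (4.33%). The median difference over all genes was -0.02 on the log2 scale and the median 95% half-width of a gene's interval was 0.18, so for a typical gene a smaller difference lay within the interval around 0.

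**Figure D1:**
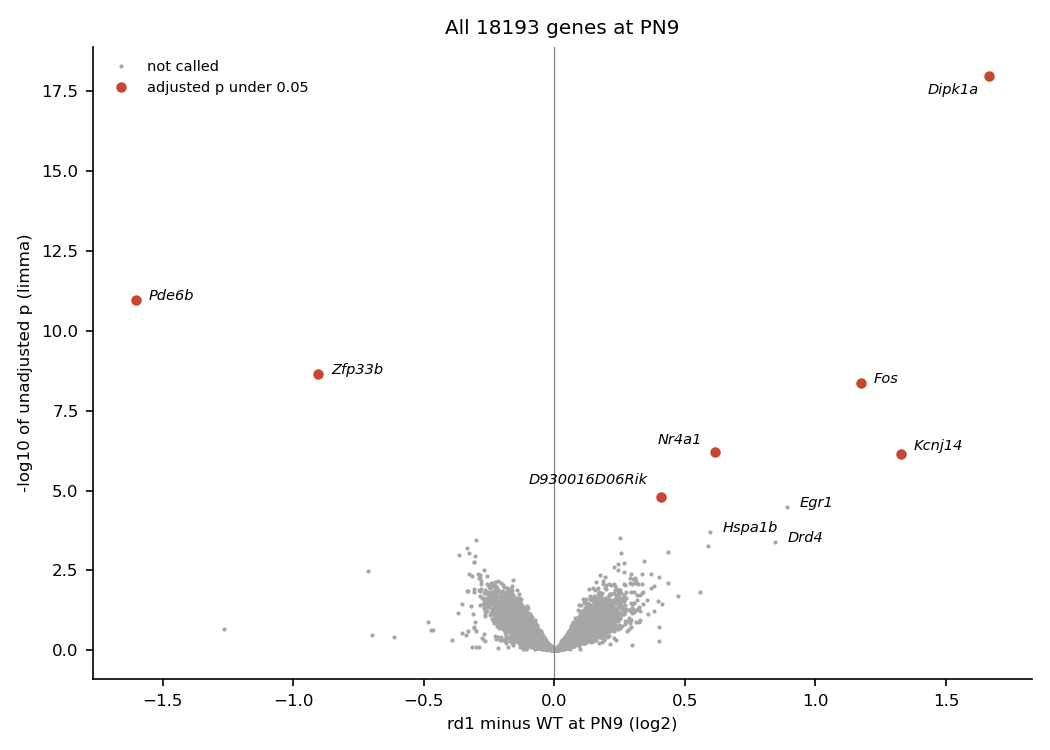
Each point is 1 of 18193 genes, placed by its difference between rd1 and WT at PN9 (log2, x axis) and by -log10 of its unadjusted p from limma (y axis); red points have an adjusted p under 0.05. The 7 called genes stand apart from the cloud, with Dipk1a at 1.67 and Pde6b at -1.60 at the far ends, and Egr1, Drd4 and Hspa1b lie between them and the cloud.

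Pde6b, the mutated gene, was measured by 1 probe set. It read 12.82, 12.82 and 12.74 in the WT arrays and 11.32, 11.15 and 11.10 in the rd1 arrays. All 3 rd1 arrays were below all 3 WT arrays. The difference was -1.60 ± 0.17 (log2, SE), a level 3.04-fold lower in rd1 (adjusted p = 9.81e-08). In whole retina fewer cells of a type and less RNA per cell cannot be told apart, here or for any other gene below. The transcript was still present in rd1, and the difference at PN9 was close to those at PN7 (-1.99) and PN8 (-1.78), the change from their mean being 0.28 ± 0.21 (adjusted p = 1.00).

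The partners of Pde6b in the light response gave no call. Of 13 measured genes of the phosphodiesterase and cGMP pathway, Pde6b alone was called, and the other 12 lay between -0.08 and 0.16 with no unadjusted p under 0.05. Pde6a, the catalytic alpha subunit, was at 0.00 ± 0.19 and Pde6g, the inhibitory gamma subunit, at 0.01 ± 0.08. The guanylate cyclase gene Gucy2e differed by 0.06 ± 0.15, and the cyclase-activating proteins Guca1a and Guca1b by 0.00 ± 0.11 and 0.07 ± 0.16. The subunits of the cGMP-gated channel, Cnga1 and Cngb1, were at 0.03 ± 0.10 and -0.05 ± 0.09. Slc24a1, the rod sodium, calcium and potassium exchanger, had the widest interval of these, 0.16 with 95% limits of -0.28 and 0.59. Aipl1, a chaperone that rods need to assemble the phosphodiesterase, was at -0.01 ± 0.12. The pathway's median was 0.00, beside -0.02 for all genes.

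Dipk1a and Zfp33b, which lie on the same chromosome as Pde6b, also differed at PN9. Dipk1a, a divergent kinase-domain protein of the secretory pathway, read 8.26, 8.29 and 8.00 in WT and 9.89, 9.88 and 9.77 in rd1. The rd1 arrays were all higher, by 1.67 ± 0.10 or 3.17-fold (adjusted p = 1.87e-14). Zfp33b, a zinc finger protein, read 7.96, 8.20 and 8.23 in WT and 6.98, 7.07 and 7.63 in rd1. Again the groups did not overlap, although rd1 replicate 3 lay nearer to WT than the other two, and the difference was -0.90 ± 0.12 (adjusted p = 1.35e-05). In a fit of the 6 PN9 arrays alone the call on Zfp33b was lost (adjusted p = 0.147). Both differences were already there on the arrays of earlier ages: Dipk1a was at 1.29 at PN5, 1.60 at PN7 and 1.73 at PN8, and Zfp33b was at -0.79, -1.16 and -1.08.

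All 3 of these genes lie on chromosome 5, within 20 Mb of Pde6b in the GRCm38.p6 gene table. That window held 400 measured genes, of which 3 were called, beside 0.0385% of all genes. Pde6b, on which the window is centred, is among them by construction. On other chromosomes 3 of 17012 genes were called, and on the rest of chromosome 5 it was 0 of 730. In the window 23 genes (5.75%) had an unadjusted p under 0.05. That share was 2.84% on other chromosomes and 3.42% on the rest of chromosome 5. The difference between these shares was not tested. None of the other ages shares an array with PN9. Of the 23 genes, 22 had the same sign at PN8 (95.7%, beside 64.0% of all 536 genes with an unadjusted p under 0.05), 16 at PN7 (69.6%, beside 38.8%) and 17 at PN11 (73.9%, beside 50.4%). The sign was the same at all of these ages in 13 of them (56.5%, beside 13.8%). Cplx1, a synaptic complexin, is an example outside the rule for named genes, at 0.17 ± 0.07 at PN9, 0.19 at PN8 and 0.30 at PN7.

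Single probe sets in that window told more than the brightest one per gene. When every probe set was tested separately, 16 of 45037 were called (0.0355%), 11 of them with a gene symbol, which stood for 10 genes. The 3 genes added in this way, named after their values were seen, were Gak, Pcgf3 and Rpap2, all on chromosome 5. For Gak, a kinase of clathrin uncoating, 1 probe set was higher in rd1 by 0.69 and its brightest was at -0.06. Pcgf3, a polycomb group protein, had 2 probe sets called at 0.98 and 0.47, while its brightest was at -0.01. For Rpap2, a phosphatase of RNA polymerase II, 1 probe set was lower by 0.59 (-0.59, adjusted p = 0.0123) and its brightest was higher by 0.27. Probe sets of these 3 genes therefore disagree, and no direction for the gene can be read from them.

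D930016D06Rik, an unnamed transcript without a position in the gene table, was called with the smallest difference. Its brighter probe set read 8.83, 8.85 and 8.77 in WT and 9.29, 9.27 and 9.12 in rd1. The groups did not overlap, and the difference was 0.41 ± 0.08 (adjusted p = 0.0405). The call was lost without WT replicate 1, 2 or 3 or rd1 replicate 1 or 2 (adjusted p between 0.145 and 0.578). Its other probe set was at 0.51, and on the separate arrays of PN8 the gene was at 0.44.

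Among the genes that differed at PN9 but little at PN7, the smallest p was that of Fos, a subunit of the AP-1 transcription factor. Fos read 7.82, 8.01 and 7.83 in WT and 9.21, 9.14 and 8.84 in rd1. The lowest rd1 array stood 0.83 above the highest WT array, and the difference was 1.18 ± 0.16 or 2.26-fold (adjusted p = 1.98e-05). At PN7 it had been -0.02, a day later it was 0.42, and by PN11 it was 3.38. Nr4a1, an orphan nuclear receptor of the immediate early class, read 8.87, 8.75 and 8.86 in WT and 9.49, 9.56 and 9.27 in rd1. These groups did not overlap either, with a difference of 0.61 ± 0.10 or 1.53-fold (adjusted p = 0.00215), after 0.09 at PN7 and 0.04 at PN8. Without rd1 replicate 2 Nr4a1 was at 0.55 and missed the threshold (adjusted p = 0.0685).

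Egr1 and Fosb leaned the same way without passing the test over all genes. Egr1, a zinc finger transcription factor, read 9.72, 9.90 and 9.72 in WT and 10.92, 10.59 and 10.51 in rd1. The 3 rd1 arrays were above the 3 WT arrays, with a difference of 0.89 ± 0.19 and an adjusted p of 0.0718. It was called when arrays were centred on amacrine and ganglion cell genes (adjusted p = 0.0358), with array weights (0.00183) and in a fit of the PN9 arrays alone (0.00388), while its adjusted p was 0.238 with a replicate block. When single PN9 arrays were left out its adjusted p ran from 0.098 to 1.00, and without rd1 replicate 1 the difference was 0.77 (adjusted p = 1.00). Egr1 was called without WT PN11 replicate 1 (0.0332) or 3 (0.0131), arrays that enter this comparison only through the estimate of the spread. Fosb, another AP-1 subunit, read 4.99, 4.81 and 5.06 in WT and 5.32, 5.58 and 5.25 in rd1, a difference of 0.43 ± 0.12 (adjusted p = 0.973). These are low intensities for an array. Groups that did not overlap were part of the rule that took uncalled genes with an unadjusted p under 0.001. For Egr1 and Fosb, and for Hspa1b, Drd4 and Sik2 below, the separation is therefore no further evidence.

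In the immediate early list a few members differed and most did not. Of its 26 genes, 2 were called (Fos and Nr4a1, beside 0.0385% of all genes) and 4 had an unadjusted p under 0.05 (with Egr1 and Fosb, beside 2.95% of all genes). The median difference was 0.00, beside -0.02 for all genes, and the mean was 0.11. Jun, the usual partner of Fos in AP-1, was at -0.14 ± 0.18, Junb at 0.08 ± 0.10 and Jund at 0.02 ± 0.06. Egr2 was at 0.19 ± 0.10, and Egr3 and Egr4 were at -0.04 and 0.00. The relatives of Nr4a1, Nr4a2 and Nr4a3, differed by 0.00 ± 0.10 and 0.01 ± 0.08. Arc and Npas4, which follow neuronal activity, were at -0.10 ± 0.10 and -0.01 ± 0.11, and the remaining 12 genes lay between -0.13 and 0.07. The mean over the list was 7.57, 7.58 and 7.66 in WT and 7.75, 7.71 and 7.68 in rd1, so the rd1 arrays lay above the WT arrays by a narrow margin. That mean includes Fos, Nr4a1, Egr1 and Fosb and was not taken without them, so it does not describe the other members.

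**Figure D2:**
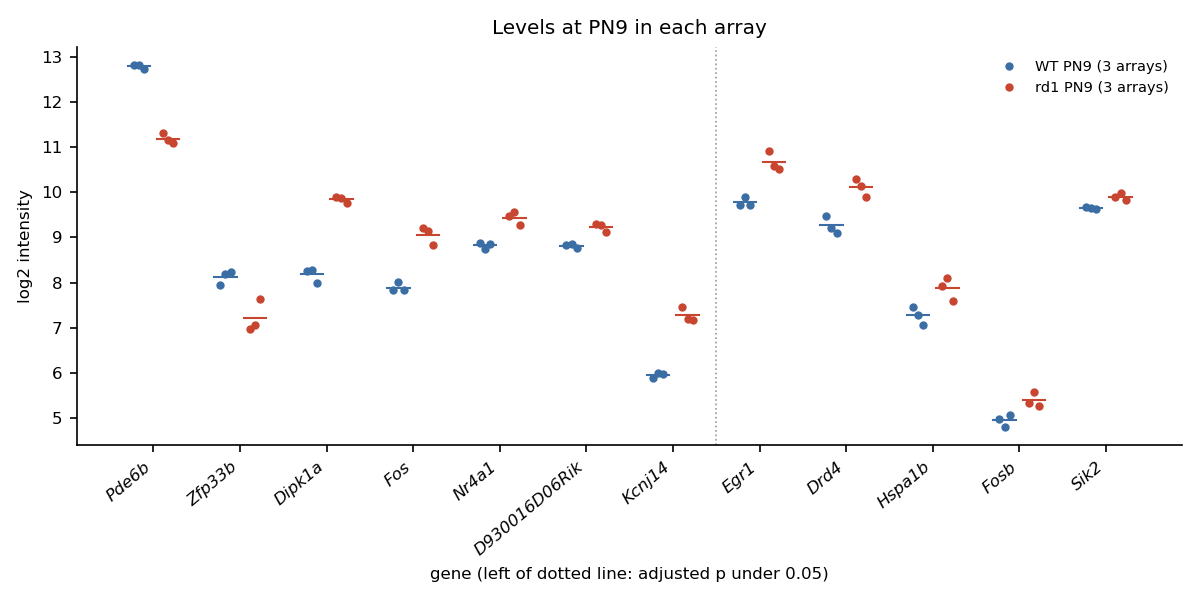
Log2 intensity at PN9 (y axis) of 12 genes (x axis) in each of the 3 WT arrays (blue) and the 3 rd1 arrays (red); bars are group means, and genes left of the dotted line have an adjusted p under 0.05. The groups do not overlap in any of the 12, which were named for their differences, and the gap is widest for Dipk1a and Pde6b and narrow for Hspa1b, Fosb and Sik2.

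The promoters of Fos, Fosb, Nr4a1, Hspa1b and Sik2 are shown because their transcripts leaned upward at PN9 and were all called at PN11. Each sequence is the strand of the gene, a window of 300 bases that spans the start of transcription and lies mostly upstream of it, from RefSeq on the GRCm38.p6 build. The 5 motifs searched on both strands, with matches in capitals, were the cAMP response element core TGACGT, the EGR site GCGNGGGCG, the AP-1 site TGANTCA, the CArG box bound by serum response factor, and the heat shock element core GAANNTTC. Of the 15 genes called or with an unadjusted p under 0.001 that the rule named, 10 had a promoter in the table, and Dipk1a, Kcnj14, Egr1, Nfkbiz and D930016D06Rik are named only.
Fos, chr12:85473640-85473939, plus strand: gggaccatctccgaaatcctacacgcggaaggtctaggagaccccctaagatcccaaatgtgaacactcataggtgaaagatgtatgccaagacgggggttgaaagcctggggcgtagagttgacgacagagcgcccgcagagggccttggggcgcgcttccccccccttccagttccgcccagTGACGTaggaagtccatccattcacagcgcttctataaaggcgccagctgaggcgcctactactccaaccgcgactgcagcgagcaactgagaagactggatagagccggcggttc
Fosb, chr7:19309996-19310295, minus strand: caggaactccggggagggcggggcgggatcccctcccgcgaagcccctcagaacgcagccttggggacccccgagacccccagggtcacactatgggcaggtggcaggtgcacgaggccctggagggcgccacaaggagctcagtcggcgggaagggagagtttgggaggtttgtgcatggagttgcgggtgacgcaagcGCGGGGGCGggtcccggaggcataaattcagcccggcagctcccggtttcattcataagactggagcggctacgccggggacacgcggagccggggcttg
Nr4a1, chr15:101266596-101266895, plus strand: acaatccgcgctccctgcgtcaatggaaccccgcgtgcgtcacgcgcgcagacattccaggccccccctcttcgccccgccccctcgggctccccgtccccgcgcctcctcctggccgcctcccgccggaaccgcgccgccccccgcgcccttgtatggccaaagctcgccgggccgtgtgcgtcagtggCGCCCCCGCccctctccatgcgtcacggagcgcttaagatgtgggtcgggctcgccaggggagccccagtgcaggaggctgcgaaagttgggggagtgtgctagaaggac
Hspa1b, chr17:34959189-34959488, minus strand: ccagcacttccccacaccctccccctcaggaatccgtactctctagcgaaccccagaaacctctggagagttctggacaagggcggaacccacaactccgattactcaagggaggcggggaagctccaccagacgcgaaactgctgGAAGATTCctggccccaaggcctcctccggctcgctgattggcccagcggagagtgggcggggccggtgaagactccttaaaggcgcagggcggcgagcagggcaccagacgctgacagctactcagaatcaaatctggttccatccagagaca
Sik2, chr9:51009024-51009323, minus strand: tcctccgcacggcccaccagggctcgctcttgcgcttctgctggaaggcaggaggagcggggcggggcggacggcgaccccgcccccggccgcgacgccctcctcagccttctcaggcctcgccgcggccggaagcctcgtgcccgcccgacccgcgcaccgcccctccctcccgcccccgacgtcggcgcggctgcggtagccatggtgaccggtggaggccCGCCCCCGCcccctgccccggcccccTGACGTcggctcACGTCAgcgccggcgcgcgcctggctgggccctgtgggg

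In the Fos window the capitals mark the cAMP response element core at position -66 from the start, a motif held by 7.51% of the 32851 promoters of the table. Fosb and Nr4a1 each held an EGR site, at -50 and on the opposite strand at -60, a motif of 5.55% of promoters. Hspa1b held a heat shock element core at -104, a motif of 7.86% of promoters whose pattern GAANNTTC is symmetric, so that 1 site matches on both strands. Sik2 held a pair of cAMP response element cores, at -1 and on the opposite strand at 12, and an EGR site on the opposite strand at -27. None of these windows held the AP-1 site (7.81% of promoters) or the CArG box (1.63%). The promoters that are not shown were searched too. Among genes lower in rd1, Pde6b held the AP-1 site, Lyg2 the CArG box and a promoter of Prdm9 the heat shock element core. Zfp33b, also lower, a further promoter of Prdm9, and Drd4, which was higher, held none of the motifs. Matches were therefore not limited to genes that leaned upward, and a link between motif and direction was not tested. A match is a description of letters and says nothing of whether a factor was bound.

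Hspa1b, an inducible heat shock protein of the Hsp70 family, read 7.47, 7.28 and 7.07 in WT and 7.92, 8.09 and 7.60 in rd1. The rd1 arrays were all higher, by a narrow gap, and the difference was 0.60 ± 0.15 (adjusted p = 0.391). All 3 of its probe sets differed upward with an unadjusted p under 0.05, at 0.60, 0.68 and 0.79. Its near-identical copy Hspa1a was at 0.48 ± 0.20 with overlapping groups, and because the copies are so similar the signal cannot be assigned to one of them. The rest of the heat shock list gave no call: of 12 measured genes none passed over all genes, 2 had an unadjusted p under 0.05 (these 2), and the median was 0.03. Hspa8, the constitutive member of the family, was at 0.03 ± 0.06, Hsph1 at 0.04 ± 0.07 and Dnajb1 at -0.01 ± 0.07.

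Kcnj14 and Drd4 showed a different course. Kcnj14, an inwardly rectifying potassium channel, read 5.89, 5.99 and 5.97 in WT and 7.47, 7.20 and 7.17 in rd1. The lowest rd1 array stood 1.18 above the highest WT array, and the difference was 1.33 ± 0.22 or 2.51-fold (adjusted p = 0.00215). Without rd1 replicate 1 it was 1.23 (adjusted p = 0.0594). At PN7 the difference was 0.02, it stood at 0.69 a day later, was 0.23 at PN11, and its sign had turned by PN15 (-2.11) and PN21 (-4.59). In WT the gene stood at a mean of 5.90 at PN8, 5.95 at PN9 and 8.93 at PN11, whereas in rd1 it stood at 6.60, 7.28 and 9.16. The change of the difference from PN9 to PN11, -1.10 ± 0.32, did not pass the test over all genes (adjusted p = 0.328). Kcnj14 and Drd4 were named for their PN9 differences, so a peak at that age is no separate evidence.

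Drd4, the D4 dopamine receptor, which photoreceptors express, read 9.48, 9.21 and 9.11 in WT and 10.30, 10.14 and 9.89 in rd1. The groups did not overlap and the difference was 0.85 ± 0.22, with an adjusted p of 0.615. It passed the threshold with array weights (0.000962) and in the fit of the PN9 arrays alone (0.0169), and its adjusted p was 0.977 with a replicate block. When single PN9 arrays were left out its adjusted p ran from 0.475 to 1.00, and without rd1 replicate 1 the difference was 0.75 (adjusted p = 1.00). Drd4 was called without WT PN8 replicate 3 (0.000156), an array that enters this comparison only through the estimate of the spread. The other probe set of Drd4 was higher by 0.49. Drd4 was at 0.18 at PN8, 0.19 at PN11 and -1.55 at PN21, and in WT its mean went from 9.27 at PN9 to 11.64 at PN11. Nfkbiz, a nuclear regulator of NF-kappaB, was at 0.59 ± 0.16 (adjusted p = 0.741) and its 3 probe sets disagreed in size, at 0.59, 0.20 and 0.05.

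**Figure D3:**
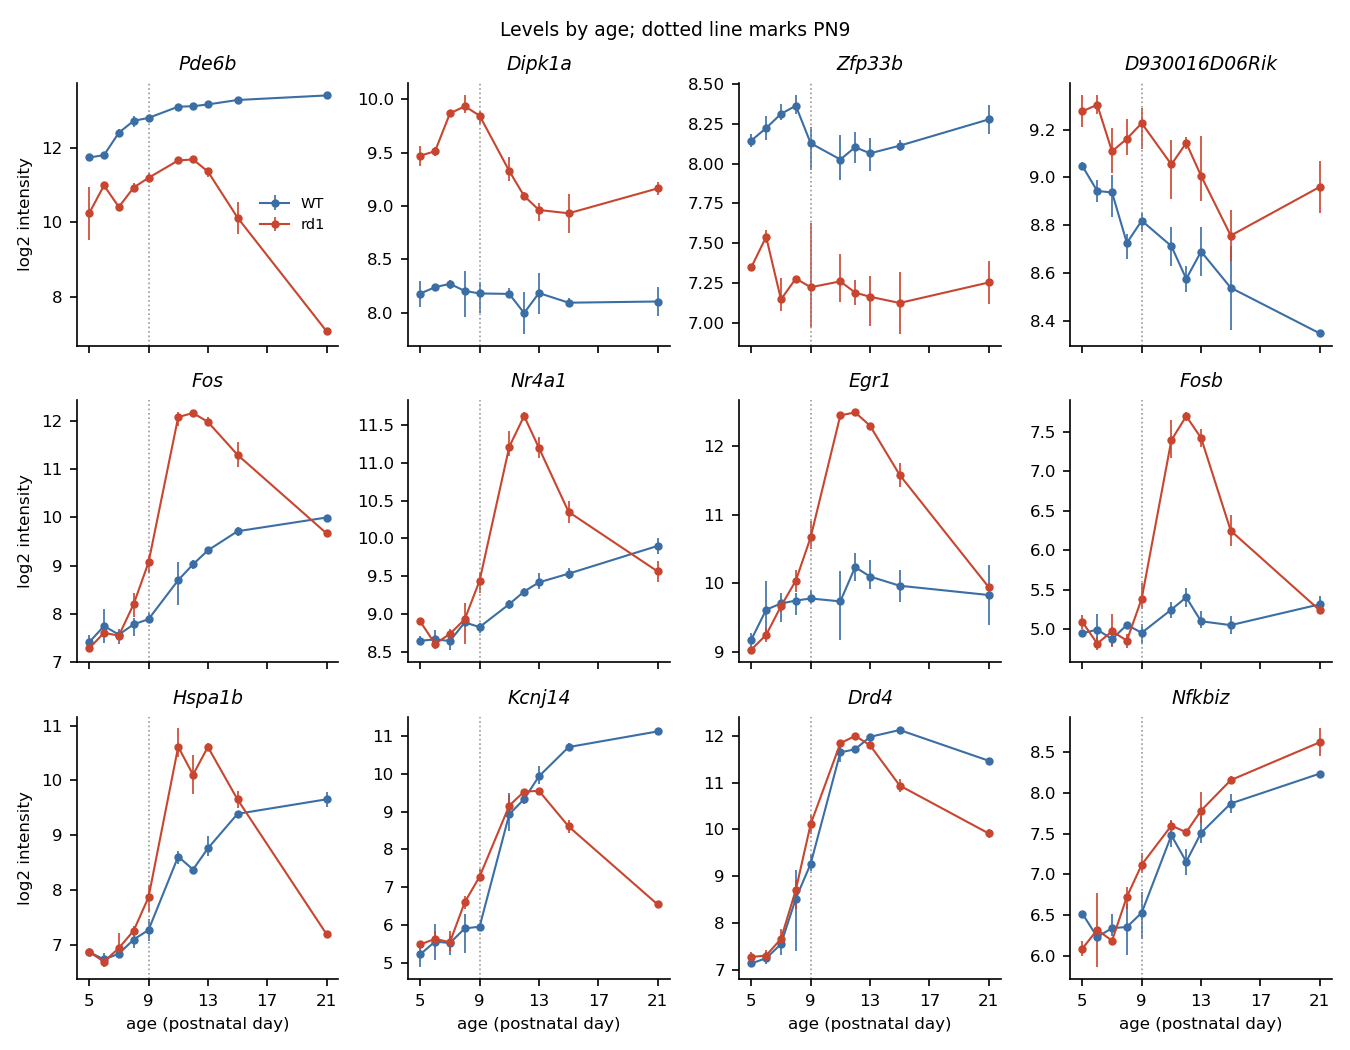
Log2 intensity (y axis) against age in postnatal days (x axis) for 12 genes, with WT in blue and rd1 in red; points are means of 2 or 3 arrays, bars run from the lowest to the highest array, and the dotted line marks PN9. In Dipk1a, Zfp33b, Pde6b and D930016D06Rik the groups do not overlap at any age up to PN13, Fos, Nr4a1, Egr1, Fosb and Hspa1b part from WT around PN9, and in Kcnj14 and Drd4 rd1 lies above WT at PN9 and below it at PN21.

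Only Pde6b and Zfp33b were called lower at PN9. Among uncalled genes with an unadjusted p under 0.001, the rule took 2 that were lower in rd1, Lyg2, a lysozyme-like protein, at -0.34 ± 0.09 and Prdm9, a histone methyltransferase of meiosis, at -0.33 ± 0.09. Neither was called (adjusted p = 0.836 and 0.973). Lyg2 read 5.01, 4.85 and 4.99 in WT and 4.82, 4.53 and 4.50 in rd1, and Prdm9 read 7.30, 7.25 and 7.43 against 6.91, 7.06 and 7.02. Both sets of arrays were separated, which the rule required, by 0.03 for Lyg2 and 0.19 for Prdm9. Sik2, a salt-inducible kinase, was a higher gene taken in the same way, at 0.25 ± 0.06 (adjusted p = 0.565). It read 9.67, 9.66 and 9.63 in WT and 9.89, 9.99 and 9.84 in rd1, and its 2 other probe sets were at 0.11 and 0.08.

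Photoreceptor markers gave no call at this age. None of the 17 measured rod markers had an unadjusted p under 0.05, and their median was 0.03. Their differences ran from -0.13 for Susd3 to 0.30 for Esrrb, with a median 95% half-width of 0.23. The 11 cone markers had a median of 0.02 and likewise no unadjusted p under 0.05. Of 11 photoreceptor transcription factors, Rorb, a nuclear receptor of rod and cone development, was at 0.20 ± 0.07 and Mef2d at 0.10 ± 0.05, both with adjusted p = 1.00. Rorb and Mef2d each had 1 of 3 probe sets with an unadjusted p under 0.05 in that direction. Under changed processing the lowest difference of Mef2d was 0.01. Inner retinal lists were as flat, with medians of 0.05 for bipolar cells, -0.02 for amacrine cells, -0.04 for ganglion cells, 0.05 for horizontal cells and 0.03 for Müller glia. Gad1, the GABA-synthesising enzyme of amacrine cells, had the only unadjusted p under 0.05 among them, at 0.20 ± 0.08. Only 1 of its 2 probe sets had such a p in that direction, and its lowest difference under changed processing was 0.05.

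Markers of inflammation and glial reaction gave no call either. The 19 measured genes of microglia and macrophages had a median of -0.05, and their mean was 7.08, 7.14 and 7.16 in WT and 7.03, 7.07 and 7.07 in rd1. Laptm5, a lysosomal protein of blood-derived cells, was the 1 member with an unadjusted p under 0.05, at -0.20 ± 0.09, and its 4 other probe sets lay between -0.06 and 0.14. Of these 19 genes, 4 were called higher at PN11, beside 0.434% of all genes. The 18 genes of reactive glia and damage had a median of -0.03, and Bcl3, an atypical inhibitor of NF-kappaB, was at -0.32 ± 0.15 with overlapping groups. Gfap, the intermediate filament of reactive Müller cells, and S100a6 and Edn2, which are damage signals, were at 0.02, 0.18 and -0.10 in that order. Complement, chemokine and cytokine genes had a median of -0.04 over 14 genes.

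Proteasome, stress and cell death genes gave no call at PN9. The series title names proteasome dysfunction, and the 14 proteasome core genes had a median of -0.06, with none at an unadjusted p under 0.05 and a range from -0.13 for Psmb1 to 0.10 for Psma5. The 20 regulator genes had a median of -0.03 and the 6 immunoproteasome and activator genes one of -0.05, again with none under 0.05. The 19 genes of endoplasmic reticulum and integrated stress had a median of -0.01, with Trib3 lowest at -0.15 and Hspa5 highest at 0.12. The 22 measured cell death genes had a median of 0.01 and a range from -0.10 for Ripk3 to 0.18 for Bcl2. Sod1, a superoxide dismutase, was the 1 of 14 oxidative stress genes with an unadjusted p under 0.05, at -0.16 ± 0.07, and its other 4 probe sets lay between -0.02 and 0.27. Transcript levels do not show protein or proteasome activity.

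Signalling feedback genes gave single members. Dusp1, a phosphatase that switches off MAP kinases, read 8.53, 8.61 and 8.60 in WT and 8.81, 8.96 and 8.74 in rd1. It was higher in all 3 rd1 arrays by 0.26 ± 0.10 (adjusted p = 1.00). Spry1, an inhibitor of receptor tyrosine kinase signalling, was lower by 0.17 (-0.17 ± 0.07), and the 14 genes of that list had a median of -0.02. Camk2d, a calcium-dependent kinase subunit, was at 0.26 ± 0.11 with overlapping groups, in a list of 17 genes with a median of -0.01. Of its 7 probe sets, 2 had an unadjusted p under 0.05 in that direction, and its lowest difference under changed processing was 0.06. Over all 31 lists and their 442 measured genes, 2 lists held a called gene, 20 held no gene with an unadjusted p under 0.05, and medians ran from -0.11 for lens markers to 0.05. Among red blood cell markers Hba-a2, an alpha globin, was at -0.28 ± 0.12 (adjusted p = 1.00), and Hba-a1, which encodes a near-identical globin, was at 0.01 ± 0.09.

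**Figure D4:**
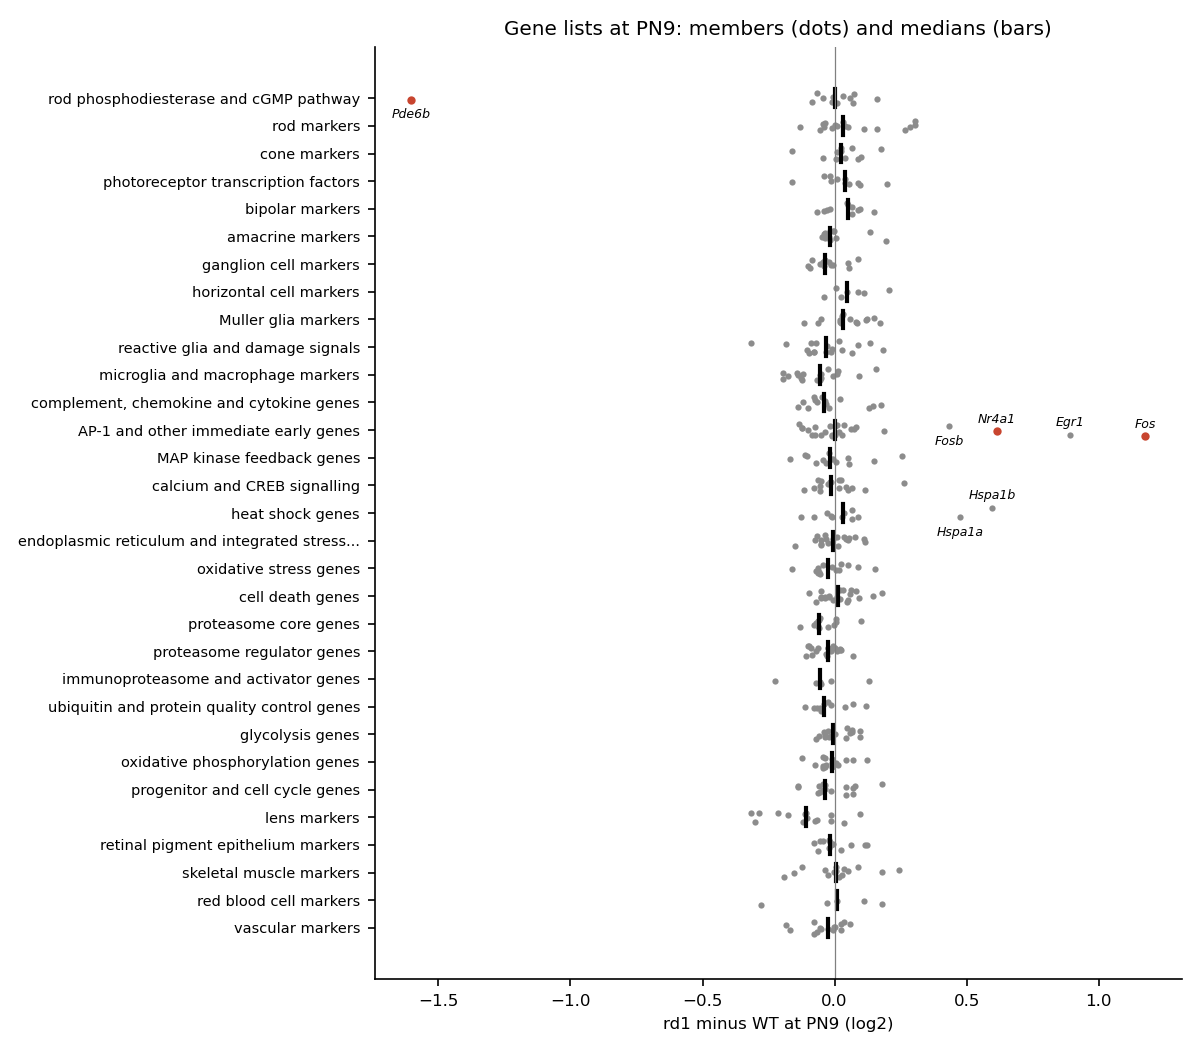
Differences between rd1 and WT at PN9 (log2, x axis) of the measured members of 31 gene lists (y axis), with 1 dot per gene, red where the adjusted p is under 0.05, and black bars for the list medians. Medians lie between -0.11 and 0.05, and the members that stand away from 0 are Pde6b, the immediate early genes Fos, Egr1, Nr4a1 and Fosb, and Hspa1b and Hspa1a.

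Whether the PN9 differences were new since PN7 and PN8 was tested on the change itself. No gene passed (0 of 18193, or 0%, by limma), while 465 genes (2.56%) had an unadjusted p under 0.05 and 5 (0.0275%) had one under 0.001. Fos changed most firmly, by 0.98 ± 0.19 (adjusted p = 0.171), ahead of Nr4a1 at 0.55 ± 0.13 (0.957). Kcnj14 changed by 0.97 ± 0.27, Egr1 by 0.77 ± 0.23, Drd4 by 0.70 ± 0.27, Fosb by 0.48 ± 0.15 and Hspa1b by 0.46 ± 0.18, all with an adjusted p of 1.00. Without WT PN8 replicate 3 the change was called in 2 genes, Drd4 at 0.98 (adjusted p = 0.00383) and Fos at 1.03 (0.0352). With array weights it was called in 1 gene, Fos at 1.07 (0.00463). For Dipk1a the change was 0.00 ± 0.13. The genes listed here were named for their PN9 differences, and the change holds the same PN9 arrays. Its size in them is therefore no separate evidence of a rise since PN7 and PN8.

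The next age sampled was PN11, and the step to it was larger. The difference changed from PN9 to PN11 in 27 genes (0.148%), upward in 23 (0.126%) and downward in 4 (0.022%). The split was 18 and 10 after centring on the amacrine and ganglion cell lists, and after quantile normalization it was 22 and 8. With array weights the count was 76, of which 50 were upward and 26 downward. Without rd1 PN11 replicate 1 it was 16. The largest upward changes were Fos at 2.21 ± 0.22, Egr1 at 1.82 ± 0.27, Fosb at 1.72 ± 0.17, Nr4a1 at 1.47 ± 0.15 and Hspa1b at 1.40 ± 0.21. The 4 downward changes were Pdzph1, a protein with PDZ and pleckstrin homology domains, at -1.47, Gpsm2, a G-protein signalling modulator, at -0.63, Abca13, a lipid transporter, at -0.60, and Faim, an apoptosis inhibitor, at -0.58. At PN9 these 4 were at 0.17, 0.10, 0.00 and 0.05, with overlapping groups.

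Of the 107 genes (0.588%) called at PN11, which shares no array with PN9, 6 were also called at PN9: all of the 7 but Kcnj14. The 79 genes (0.434%) higher at PN11 had a median of 0.43 there and of 0.06 at PN9, beside -0.02 for all genes. At PN9 54 of them (68.4%) were above 0, beside 41.5% of all genes, and 13 were higher with an unadjusted p under 0.05, beside 1.28% of all genes. At PN8 the median of the same 79 genes was 0.03 and at PN7 it was -0.02. The number above 0 at PN8 was 53 (67.1%, beside 51.3% of all genes), and at PN7 it was 31 (39.2%, beside 48.3%). With an unadjusted p under 0.05, 6 were higher at PN8 (beside 2.24% of all genes) and 4 lower. Besides the genes described above, the 13 at PN9 included Ctnnal1, an alpha-catenin-like protein, at 0.27 and Zfp472 at 0.21, both named after their values were seen. Twsg1, a BMP-binding protein that reached 1.30 at PN11, was at 0.09, and Cebpd, a transcription factor of acute responses that reached 0.68, was at 0.09. The 28 genes (0.154%) lower at PN11 had a median of 0.00 at PN9, and 14 of them were below 0 (beside 58.5% of all genes). More of these 28 genes were below 0 at the earlier ages. At PN8 it was 23 (82.1%, beside 48.7% of all genes) and at PN7 22 (78.6%, beside 51.7%), with a median of -0.06 at both ages. Guca1b and Cltrn, at -0.87 and -0.91 at PN11, were at 0.07 ± 0.16 and -0.02 ± 0.15 at PN9. Glb1l2, at -0.83 at PN11, was at -0.17 ± 0.11 at PN9.

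**Figure D5:**
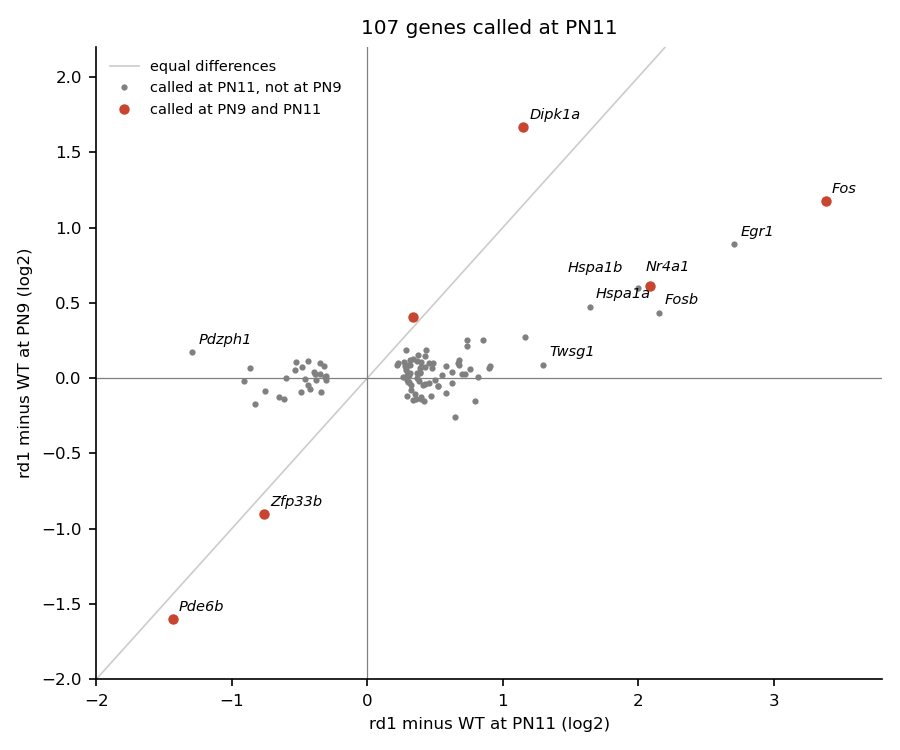
The 107 genes called at PN11, placed by their difference between rd1 and WT at PN11 (log2, x axis) and at PN9 (log2, y axis); red points were called at both ages, and the grey line marks equal differences. Pde6b, Zfp33b and Dipk1a lie near or above the line, Fos, Egr1, Nr4a1, Fosb, Hspa1b and Hspa1a lie above 0 but below the line, and most other genes are spread about 0 on the PN9 axis.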

How the data were processed

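The labels describe total RNA of neural retina, purified on a caesium gradient, labelled as biotin cRNA and hybridised to oligonucleotide arrays. The deposited values are linear intensities, 1 for each probe set of an array, which the authors had summarised with RMA (version not given) per the submitters' processing notes. The genome build and the array batches are not given in the sources used here. Log2 was taken of 45037 probe sets, of which 34945 named 1 gene symbol, 932 several and 9160 none in a platform annotation that can be old. The probe set with the highest mean stood for each of 18193 genes, and 18142 had a position in the RefSeq GRCm38.p6 table.

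Using limma 3.58.1 (R 4.3.3), group means for each genotype at each age were estimated from 50 arrays, those of the 10 ages where both genotypes had 2 or more, leaving 30 residual degrees of freedom. Variances were moderated towards an intensity trend. Tests were 2-sided, with Benjamini-Hochberg adjustment across all genes and a threshold of 0.05. A called gene is one past that threshold, and the sign ± precedes a standard error (SE). The number of arrays limits the precision. Tested on simulated data of this comparison over 18193 genes, the fit called 87 of 100 genes changed by 0.5 on the log2 scale and 100 of 100 changed by 1. It also called 4 genes that had not been changed. Both sets were changed at once, in noise drawn independently for each gene and array. With as few calls as at PN9 the adjustment is stricter, so these shares can be too high for the real arrays.

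The rule for named genes took every called gene, up to 8 more each way with an unadjusted p under 0.001 and groups that did not overlap, up to 3 members per list with an unadjusted p under 0.05, the 5 largest called changes each way, the 5 largest differences each way at PN11, and all cGMP pathway and immediate early genes. RIKEN clones and predicted genes were passed over in all but the called genes. The comparison, the 31 lists and the rule were chosen with earlier results of these data known. Alternatives changed the scaling (quantile normalization, or centring on the amacrine and ganglion cell lists), the genes (dropping the dimmest 30%, averaging probe sets, testing every probe set) and the model (no trend, array weights, a replicate block, the compared ages alone, each array left out). Replicate numbers were not taken to pair arrays. At PN9 same-numbered arrays deviated together with r from -0.045 to 0.486, and differently numbered ones with r from -0.460 to 0.487. At PN8 same-numbered arrays were at 0.148 to 0.339 and differently numbered ones at -0.319 to 0.037. Whether arrays were paired at PN8 is therefore not settled.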

Additional observations from a re-analysis of the deposited data

Results flagged for a closer look

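For the genes below, the difference between rd1 and WT was itself different at PN9 and at PN11 by limma's test of the change, adjusted over all genes. It grew by 2.21 in Fos, 1.82 in Egr1, 1.72 in Fosb, 1.47 in Nr4a1, 1.40 in Hspa1b and 0.48 in Sik2. It changed by -1.47 in Pdzph1, -0.63 in Gpsm2, -0.60 in Abca13 and -0.58 in Faim. The groups of 3 arrays were too small for a test of single arrays that stand apart.

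A signal also appeared in the probe sets that carry no gene name. The probe set 1447460_at was 1.37 higher in rd1 than in WT at PN9, at 5.89 to 6.09 in WT and 7.09 to 7.56 in rd1, beside differences of 1.27 (PN7), 1.43 (PN8) and 0.84 (PN11).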

How the results depend on the processing

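The 7 calls at PN9 became 11 (8 higher and 3 lower) with array weights, which added Egr1, Drd4, Hspa1b and the RIKEN clone 4932412D23Rik, and 5 to 7 when single PN9 arrays were left out. The change from PN7 and PN8 to PN9 was called in 0 genes, in 1 with array weights, and in 0 to 2 when single arrays were left out. The change from PN9 to PN11 was called in 27 genes, in 76 (50 and 26) with array weights and in 16 to 31 when single arrays were left out, 16 without rd1 PN11 replicate 1. With the replicate block these counts were 7, 0 and 24, and no paired reading was made. The median PN9 difference of the genes called higher at PN11 was 0.064, and it was 0.036 with the mean of all probe sets, 0.023 with array weights and 0.044 to 0.074 when PN9 arrays were left out. That of the genes called lower at PN11 was -0.0011, and it ran from -0.045 (without WT PN9 replicate 3) to 0.0062 (without WT PN9 replicate 1) when PN9 arrays were left out and from -0.016 (mean of all probe sets) to 0.012 (without the dimmest genes) under the other alternatives. The fit with array weights stopped before its weights had fully converged.

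Of 446 values of 30 named genes under alternatives, 422 kept their sign and side of the threshold, 12 lost a call, 6 gained one and 6 changed sign. Among left-out arrays these values covered those of PN9 only, and with every probe set tested they were those of the brightest one. The sign changes were in genes that were not called: Sod1 (0.014) and Guca1b (-0.035) with the mean of all probe sets, and 3 genes when PN9 arrays were left out. Pdzph1 then ran from -0.012 (without WT PN9 replicate 3) to 0.28, Guca1b from -0.0061 (without rd1 PN9 replicate 1) to 0.15, and Cltrn from -0.21 to 0.16, above 0 without WT PN9 replicate 1 or rd1 PN9 replicate 3. Besides the losses given above, D930016D06Rik was not called after centring (adjusted p = 0.0635), without the trend (0.0583) or in the fit of PN9 alone (0.147). With every probe set tested its brighter one missed the threshold (0.0514), but the gene was still called through its other probe set. Dipk1a, Pde6b and Fos were called under all 15 alternatives run for each. Of 465 list medians under alternatives, 442 moved by less than 1 SD of the arrays, and medians this near 0 can change sign. Fosb was too dim to be in the set without the dimmest genes. The cause of these changes was not tested.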

Other observations

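Other probe sets without a gene name separated the genotypes at PN9 as well. The probe set 1420312_s_at differed by -1.84 ± 0.15 (rd1 minus WT, SE) and 1444937_at by -1.66 ± 0.15, with smaller differences for 1442384_at (-0.83) and 1443210_at (-0.57). All 4 were lower in rd1 at PN7, PN8 and PN11 too.

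Ahnak2, a giant scaffold protein, and Aqp1, a water channel, had large differences outside the rule for named genes and are given after their values were seen. Ahnak2 read 7.64, 7.54 and 7.51 in WT and 6.94, 6.81 and 6.79 in rd1 (-0.71 ± 0.23, adjusted p = 1.00), and was called in the fit of the PN9 arrays alone (0.0169). Aqp1 read 5.96, 6.11 and 6.11 in WT and 6.80, 6.65 and 6.40 in rd1 (0.56 ± 0.22, adjusted p = 1.00). In neither gene did the groups overlap. Setd5, a chromatin protein, was near 10.2 in 3 of the 6 arrays and near 8.3 in the other 3, in both genotypes.

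Several genes that were higher in rd1 at PN9 were also rising in WT at that time. From PN9 to PN11 the WT mean rose by 2.98 in Kcnj14, 2.38 in Drd4, 1.34 in Hspa1b, 0.95 in Nfkbiz and 0.81 in Fos, but by 0.30 in Fosb and Nr4a1, and it was lower by 0.04 (-0.04) in Egr1. Such rises were not particular to these genes. The WT mean also rose by 2.94 in Pdzph1, 2.85 in Guca1b and 1.35 in Pde6a, whose groups overlapped at PN9. These steps share the WT PN9 arrays with the differences above, so they are a description only.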
